A study of Mus musculus with 8 samples.

Results

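The 10 genes of the MYC, MAX and MXD network (Myc, Mycn, Mycl, Max, Mnt, Mga, Mxd1, Mxi1, Mxd3 and Mxd4) were examined for binding sites of ASH2L, which belongs to the common core of the KMT2 methyltransferases acting on lysine 4 of histone H3. The genes were chosen by name, with earlier results of these data known. All 10 were found in the annotation, and they were read against all 21938 protein-coding genes of the mouse. ChIP-seq had been performed in iMEF cells, immortalised mouse embryo fibroblasts carrying floxed Ash2l alleles and a Cre-ER recombinase, in which exon 4 of both endogenous alleles was deleted with 4-hydroxytamoxifen and a lentivirus supplied FKBP-HA2-ASH2L, human ASH2L fused to the FKBP12F36V degradation tag and a tandem HA epitope. The 8 libraries formed 4 groups of 2, namely ASH2L precipitates from cells without dTAG, ASH2L precipitates from cells exposed to dTAG for 1 h, and an input for each condition; dTAG recruits a ubiquitin ligase to the tag so that the fusion protein is degraded. All groups therefore shared the deleted endogenous alleles and the human transgene, the cells had been expanded as single clones, and the labels give the antibody as Ash2l whereas the study's methods describe HA antibodies. The data were 1 list of 6444 sites pooled over all samples, each with a chromosome, a start and an end in mm10 and with no signal per library. With this list a gene could be compared with other genes, but not between conditions or replicates (a further list of sites changed by dTAG, which the study names, was not used here), no value has a replicate error, and the list holds no read depth.

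MYC proteins are transcription factors of the basic helix-loop-helix leucine zipper class that bind DNA as dimers with MAX, most often at the E-box CACGTG. MAX also pairs with the MXD proteins, MNT and MGA, which compete with MYC for MAX and for the same E-boxes and recruit corepressors in place of coactivators. In fibroblasts MYC is induced by growth factors and drives growth and cell cycle entry, whereas several MXD proteins are better known from differentiating and resting cells. The promoters of such genes lie in CpG islands, GC-rich stretches with little loss of CpG, where KMT2 complexes and trimethylated lysine 4 of histone H3 are commonly found.

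No ASH2L site was centred within 1 kb of a transcriptional start site (TSS) of any of the 10 network genes. Among all protein-coding genes 14.0% had such a site, and among the 16099 protein-coding genes with a CpG island the share was 19.0%. The result was the same for sites within 3 kb, with 0 of 10 network genes against 15.4% of all genes, and for sites inside the gene body, with 0 of 10 against 15.8%. A count of 0 of 10 allows a share of up to 30%, so that a share below those of all genes was not detectable with 10 genes. The gene bodies of the network genes add up to 235.64 kb, in which 1.01 sites would lie at the density of 4.27 sites per Mb found over all coding gene bodies. Within 200 kb of the gene on either side, 7 of the 10 genes (70.0%, Wilson 95% interval 39.7% to 89.2%) had at least 1 site, next to 69.3% of all protein-coding genes. The intervals cover counting error only.

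**Figure D1:**
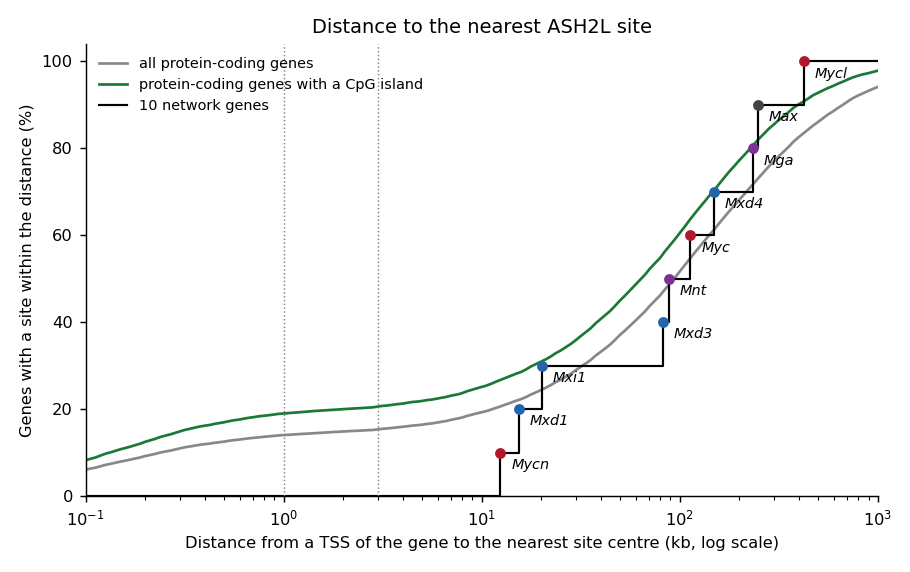
The share of genes (%) with an ASH2L site within a given distance (kb, log scale) of a TSS is drawn for all protein-coding genes (grey), those with a CpG island (green) and the 10 network genes (black steps, each gene a point coloured red for MYC, grey for MAX, purple for MNT and MGA and blue for MXD). The dotted lines mark 1 kb and 3 kb, and no network gene has a site nearer than that of Mycn at 12.5 kb.

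The promoters of the network genes lay in long CpG islands, and their base composition was similar to that of promoters with a site. A CpG island was present within 1 kb of the TSSs of all 10 genes, as at 73.4% of all protein-coding genes, and all 10 islands were at least 500 bp long, a length reached at 60.5% of genes. The longest island of each gene measured between 1041 bp at Mga and 3564 bp at Myc, with a median of 1560.5 bp against 1133 bp at island genes with a promoter site and 925 bp at all island genes. Over 500 bp on either side of the gene start, the GC content had a median of 62.7% and ranged from 57.3% at Mga to 72.7% at Mxd1, whereas the median was 59.7% at genes with a promoter site and 54.7% at all genes. The ratio of observed to expected CpG had a median of 0.819, from 0.674 at Mycn to 0.873 at Mga, beside 0.816 at genes with a promoter site and 0.552 at all genes. The MXD genes Mxd1, Mxd3 and Mxd4 had the highest GC contents of the network, at 72.7%, 68.4% and 67.7%. None of the 10 genes shared its promoter with a divergent gene, an arrangement found at 18.3% of coding genes. The number of annotated TSSs per gene had a median of 4.5 and a range from 3 to 12, beside a median of 3 in all coding genes.

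**Figure D2:**
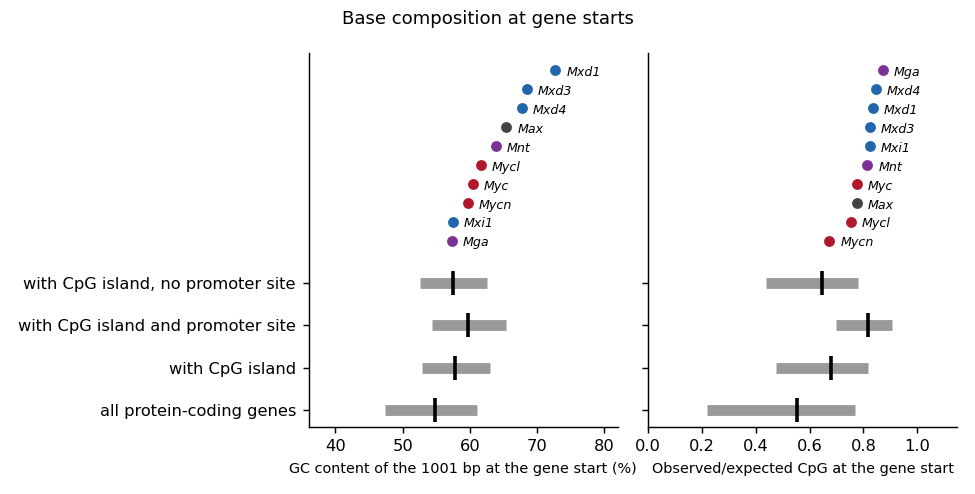
GC content (%, left) and the ratio of observed to expected CpG (right) are shown for the 1 kb around the gene start, with 1 point for each network gene (red MYC, grey MAX, purple MNT and MGA, blue MXD) and, for 4 sets of protein-coding genes, the median (black line) and the interquartile range (grey bar). The network genes have a median CpG ratio of 0.819, next to 0.817 at island genes with a promoter site and 0.646 at island genes without one.

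The promoter sequences were inspected for the E-box CACGTG, since it is the letters that the network's own proteins bind. Of the 10 genes, 9 matched the RefSeq promoter table (GRCm38.p6, 250 bases before to 50 after a start, 11 entries), all but Myc. The E-box, which is its own reverse complement, contains a CpG, and its share among promoters with a CpG island alone was not computed. It occurred in 7.15% of the 32851 promoters of the table and in 3 of the 11 entries. These were the promoters of 3 of the 9 genes, Max, Mnt and Mxd4. They are printed 5′ to 3′ on the strand of the gene, from 250 bases before to 25 bases after the RefSeq start, with the E-box in capitals, because they show the network's recognition letters in CpG-rich promoters at which no ASH2L site was listed. The Max stretch is chr12:76962224-76962498 (minus strand), the Mnt stretch chr11:74830674-74830948 (plus strand) and the Mxd4 stretch chr5:34187686-34187960 (minus strand).
Max: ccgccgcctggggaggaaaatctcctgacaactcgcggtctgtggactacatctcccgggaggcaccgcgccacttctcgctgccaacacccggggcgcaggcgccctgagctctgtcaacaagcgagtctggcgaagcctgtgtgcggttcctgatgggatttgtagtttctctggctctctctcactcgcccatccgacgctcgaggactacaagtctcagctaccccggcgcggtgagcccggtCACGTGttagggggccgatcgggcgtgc
Mnt: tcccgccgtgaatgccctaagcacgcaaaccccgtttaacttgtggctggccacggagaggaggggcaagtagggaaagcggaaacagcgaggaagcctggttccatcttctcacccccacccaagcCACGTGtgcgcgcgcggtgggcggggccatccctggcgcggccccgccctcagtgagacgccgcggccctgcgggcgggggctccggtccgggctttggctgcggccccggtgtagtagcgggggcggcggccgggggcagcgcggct
Mxd4: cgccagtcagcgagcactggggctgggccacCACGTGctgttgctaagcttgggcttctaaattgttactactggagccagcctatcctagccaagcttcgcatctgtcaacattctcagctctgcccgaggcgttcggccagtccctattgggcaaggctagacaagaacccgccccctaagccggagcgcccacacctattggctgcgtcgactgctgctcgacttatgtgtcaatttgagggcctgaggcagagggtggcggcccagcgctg
The E-box began 3 bases before the start in Max, 123 bases before it in Mnt and 219 bases before it in Mxd4. A second form, CACGCG on either strand, occurred in the promoters of Mga and Mycl and in 9.27% of all promoters. CCAAT, the NFY letters, occurred in Mxd1 and Mxd4 (37.4% of all promoters), CCCCGCCCC, the SP/KLF letters, in Mxd1, Mxd3 and Mycn (11.4%), and TTTCGCGC, an E2F form, in Mycn alone (0.323%). CCGGAAGT (ETS), TGACGTCA (CRE), TGANTCA (AP-1) and GCGCATGCG (NRF1) were in none of the 11 entries. All motifs were searched on both strands, and a match describes the letters only.

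The 3 MYC genes differed in where their nearest ASH2L site lay. Distances from a network gene are given from its closest annotated TSS unless another point is named. Myc (ENSMUSG00000022346.15, chr15:61985391-61990374, plus strand), the broadly expressed founding member, had 6 annotated TSSs and the longest CpG island of the network. Its nearest site, chr15:61871780-61871979, was centred 113.5 kb upstream in intergenic sequence, was 200 bp wide, lay in no CpG island and held the AP-1 letters. A second site of 258 bp, chr15:62128529-62128786, was centred 141.2 kb downstream of the nearest Myc TSS in an intron of Pvt1, the non-coding RNA gene that neighbours Myc. Myc was the only protein-coding gene in the 257 kb between these sites, and no other coding gene started within 200 kb of it. Of all protein-coding genes, 54.8% had a site at least as near as Myc did, and of those on chromosome 15 the share was 70.2%.

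Mycn (ENSMUSG00000037169.15, chr12:12936093-12941914, minus strand), which is best known from the embryonic nervous system and neuroblastoma, had the shortest distance of the network. Its nearest site was 200 bp wide and centred 12.5 kb downstream of a Mycn TSS and 7.94 kb beyond the end of the gene, with a TSS of Mycn itself as the closest of any gene, and 20.6% of coding genes had a site as near. It lay in no CpG island, and 67.5% of its bases are marked as repeats in the RefSeq genome, a share above 50% being found in 12.1% of the sites farther than 3 kb from any TSS and in 5.55% of all sites. No other site lay within 200 kb, and in the opposite direction the first was 307.3 kb upstream of the gene start. Mycl (ENSMUSG00000028654.13, chr4:122995652-123002485, plus strand), a paralogue first described in lung cancer, had no site within 200 kb. Its nearest site, chr4:123422719-123422918, was 423.5 kb downstream in an intron of Macf1, a gene for a cytoskeletal linker, and 83.5% of coding genes had a nearer or equally near one. Mycl lay in a stretch of 2325 kb without a site, which held 20 protein-coding genes in full, 16 of them with a CpG island. Of its 9 coding neighbours within 200 kb, 0 had a promoter site, beside 14.0% of all protein-coding genes. The nearest sites of Myc, Mycn and Mycl were all 200 bp wide, the smallest width in the list, and the position of each depends on keeping such sites.

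Max (ENSMUSG00000059436.13, chr12:76937269-76962201, minus strand) encodes the dimerisation partner that the other members share. With 7 TSSs and a 1308-bp CpG island it had no site within 200 kb. The nearest, chr12:77209766-77210087, was 322 bp wide and centred 247.7 kb upstream in intergenic sequence, 28.2 kb before the start of the fucosyltransferase gene Fut8. None of the 4 coding neighbours of Max within 200 kb had a promoter site, beside 14.0% of all protein-coding genes. A site at least as near as that of Max was present for 73.0% of coding genes.

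Mnt and Mga, the larger MAX partners that are expressed in most cell types, had no site of their own either. Mnt (ENSMUSG00000000282.12, chr11:74830920-74845725, plus strand) had a 2685-bp island, and 2 sites within 200 kb, both at the promoter of the serine racemase gene Srr and both also within 1 kb of a TSS of Smg6. The site chr11:74925655-74925893 was 239 bp wide, centred 88.3 kb downstream of the nearest Mnt TSS, 80.0 kb past the end of the gene and 1 bp before a TSS of Srr, and held the letters CACGCG and the SP/KLF letters. The site chr11:74926172-74926462 was 291 bp wide and centred 369 bp before another annotated TSS of Srr, within an intron of Smg6, a gene of nonsense-mediated RNA decay. On the other side of Mnt the first site was 1654 kb away. Mga (ENSMUSG00000033943.15, chr2:119897228-119969581, plus strand), whose product combines a T-box and a helix-loop-helix zipper domain and anchors a Polycomb complex, was the longest gene of the network at 72.4 kb and had the most TSSs, 12, and the shortest island, 1041 bp. It had no site within 200 kb and none of its 11 coding neighbours had a promoter site, beside 14.0% of all protein-coding genes. Its nearest site, chr2:119662719-119663031, was 313 bp wide and centred 234.4 kb upstream, 48 bp before the TSS of Ndufaf1, which encodes an assembly factor of mitochondrial complex I.

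The 4 MXD genes, whose products repress E-box genes through the SIN3 corepressor, all had sites within 200 kb, and 6 of these 10 sites were within 1 kb of a TSS of another gene, next to 52.5% of all sites at a TSS. Mxd1 (ENSMUSG00000001156.9, chr6:86647042-86669161, minus strand) had 5, more than any other member and at the 95.5th percentile of all protein-coding genes. This count takes separately 3 sites that lie together in one CpG island, described below. The nearest, chr6:86684441-86684721, was 281 bp wide and centred 15.4 kb upstream of Mxd1, but only 59 bp before the TSS of Snrnp27, which encodes a protein of the spliceosomal tri-snRNP. Its stretch chr6:86684498-86684721, from 199 bases before the Snrnp27 start to 25 bases after it, is printed on the minus strand because it is the site nearest to a TSS of any MXD gene and lies at the promoter of another gene, with the CACGCG and ETS letters in capitals.
Snrnp27 promoter site: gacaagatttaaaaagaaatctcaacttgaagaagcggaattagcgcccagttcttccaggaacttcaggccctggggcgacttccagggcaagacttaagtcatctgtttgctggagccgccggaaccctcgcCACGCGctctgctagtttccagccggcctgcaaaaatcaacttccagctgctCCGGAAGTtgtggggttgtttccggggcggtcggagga
A further 3 sites of 248, 289 and 667 bp formed a cluster between chr6:86525085 and chr6:86526602 in one 2601-bp CpG island at Pcbp1, an RNA-binding protein gene, and at the antisense gene 1600020E01Rik, centred 136.8 to 137.9 kb downstream of the nearest Mxd1 TSS. The widest of them was centred 2 bp before the start of 1600020E01Rik and 52 bp after that of Pcbp1, and over its whole length it held an E-box together with ETS and NRF1 letters. The fifth site, chr6:86727580-86727779, was 200 bp wide and lay 58.5 kb upstream in an intron of Gmcl1.

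Mxi1 (ENSMUSG00000025025.14, chr19:53310518-53375810, plus strand), also called Mxd2, spanned 65.3 kb with 9 TSSs. Its nearest site, chr19:53389938-53390594, was 657 bp wide and centred 20.2 kb downstream of the last Mxi1 TSS and 14.5 kb past the end of the gene, at 23 bp inside Smndc1, a splicing factor gene. That last TSS belongs to a transcript annotated as a retained intron, and the same site was 59.9 kb from the nearest TSS of a protein-coding Mxi1 transcript and 79.7 kb from the gene start. The second site, chr19:53412229-53412490, was 262 bp wide and centred 42.3 kb from the same last TSS in intergenic sequence, outside any CpG island. Its plus strand is printed, with the AP-1 letters in capitals, as an example of the sites far from promoters.
Mxi1 downstream site: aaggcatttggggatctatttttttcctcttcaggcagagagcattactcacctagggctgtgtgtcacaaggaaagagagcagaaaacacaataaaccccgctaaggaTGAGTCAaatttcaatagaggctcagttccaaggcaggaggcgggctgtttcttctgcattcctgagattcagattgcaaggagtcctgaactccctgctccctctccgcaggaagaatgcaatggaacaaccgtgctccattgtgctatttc
Mxd3 (ENSMUSG00000021485.14, chr13:55325168-55329823, minus strand), the family member known from proliferating cells in S phase, had the shortest gene of the network at 4.66 kb and a single site within 200 kb. That site, chr13:55412107-55412307, was 201 bp wide and lay 82.4 kb upstream in an intron of the phosphate transporter gene Slc34a1, with CCAAT letters. None of the 16 coding neighbours of Mxd3 within 200 kb, the most of any member, had a promoter site, beside 14.0% of all protein-coding genes. Mxd4 (ENSMUSG00000037235.13, chr5:34173883-34187720, minus strand) had 2 sites, both at promoters with CpG islands. The first, chr5:34336533-34336852, was 320 bp wide and centred 149.0 kb upstream, 7.5 bp inside the ubiquitin ligase gene Rnf4. The second, chr5:34369938-34370470, was 533 bp wide and centred 182.5 kb upstream, 271 bp inside Fam193a, with a GC content of 81.8%.

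**Figure D3:**
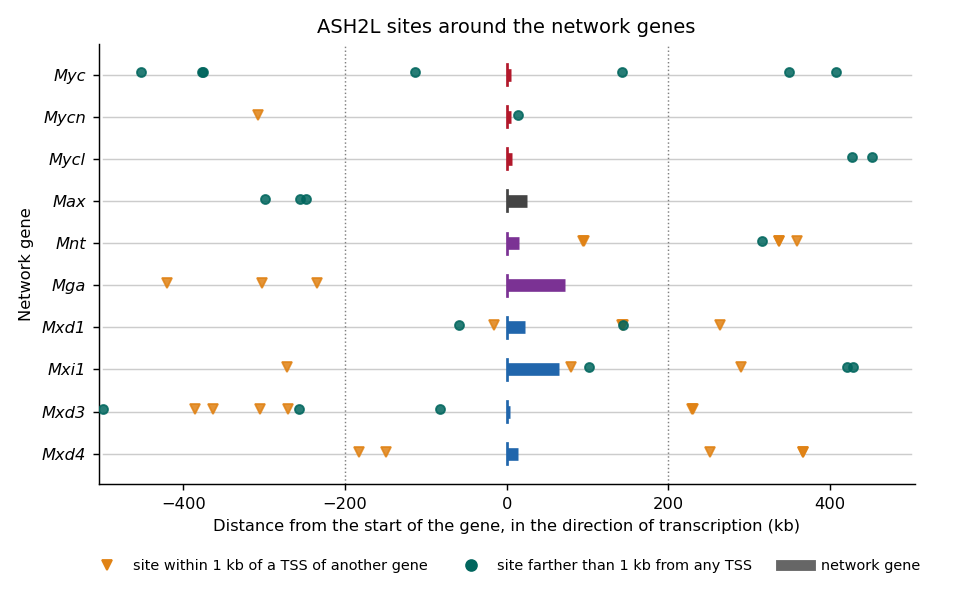
The 10 network genes are aligned at their gene start (0) and drawn to scale in the direction of transcription, with the ASH2L sites out to 500 kb on either side as triangles (within 1 kb of a TSS of another gene) or circles (farther from any TSS) with dotted lines at 200 kb. Of the 49 sites, 27 are triangles, all 7 sites around Myc are circles, and none lies on a network gene.

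In all, 15 sites lay within 200 kb of a network gene, with a median width of 262 bp (200 to 667 bp) beside 268 bp for the whole list. Of these, 8 were centred within 1 kb of a TSS of another gene and all 8 of them were in a CpG island, 1 lay between 1 and 3 kb from a TSS, and 6 were farther than 3 kb from every TSS. Out to 500 kb from the gene starts, 27 of 49 sites were within 1 kb of a TSS, next to 52.5% of all sites. The coding neighbours that lie at least partly within 200 kb of a member numbered 67, of which 7 (10.4%, Wilson 95% interval 5.15% to 20.03%) had a promoter site, next to 14.0% of all protein-coding genes. Ordered by distance from a TSS to the nearest site, the members were Mycn (12.5 kb), Mxd1 (15.4 kb), Mxi1 (20.2 kb, or 59.9 kb from a protein-coding transcript), Mxd3 (82.4 kb), Mnt (88.3 kb), Myc (113.5 kb), Mxd4 (149.0 kb), Mga (234.4 kb), Max (247.7 kb) and Mycl (423.5 kb). The median was 101 kb, against 93.8 kb for all protein-coding genes, 63.9 kb for island genes and 96.3 kb for the island genes that had no promoter site. The stretch between the last site before and the first site after the gene start had a median of 376 kb for the members, 489 kb for island genes and 604 kb for the 21474 coding genes that had a site on both sides. It was shortest at Mxd1 with 158 kb and longest at Mycl with 2325 kb.

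Myc lies on a chromosome with many sites. Chromosome 15 had 445 sites or 4.28 per Mb, beside 2.36 per Mb over all chromosomes, and its sites farther than 3 kb from a TSS numbered 246 or 2.36 per Mb against 0.877 per Mb. A promoter site was present at 18.1% of its coding genes, next to 14.0% over all chromosomes. In 1-Mb bins counted from the Myc start, the bin upstream held 6 sites, 5 of them beyond 3 kb from any TSS, and the bin downstream held 9, of which 7 were beyond 3 kb. The median bin of the chromosome held 4 sites and 2 beyond 3 kb, and the highest count beyond 3 kb was 9, in the bin from 11 to 10 Mb before Myc. Within 200 kb Myc had 2 sites, which is also the median of the coding genes of chromosome 15.

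**Figure D4:**
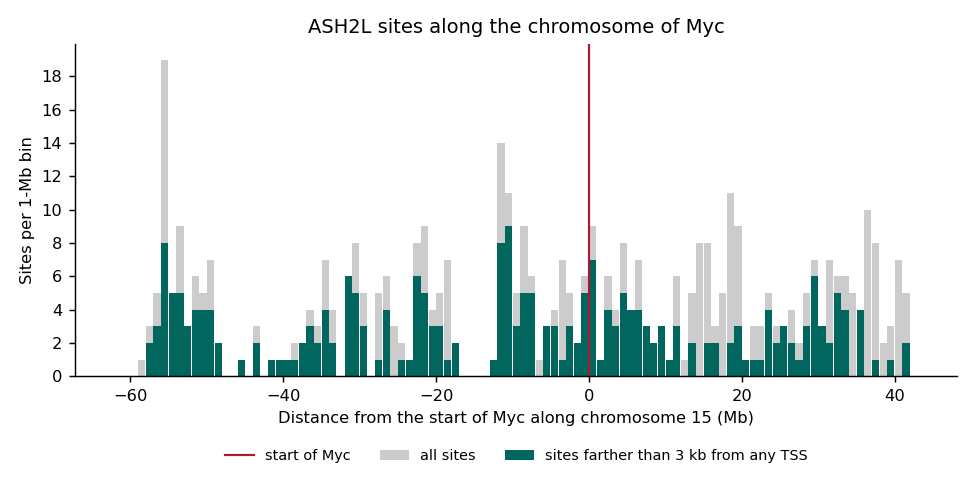
ASH2L sites per 1-Mb bin are plotted along chromosome 15 by distance from the Myc start (red line), with all sites in grey and those farther than 3 kb from any TSS in green on top. The 1-Mb bins on either side of Myc hold 5 and 7 sites of the second kind, above the median of 2, and 22 of the 103 bins hold none.

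The central 200 bp of the 15 sites around the network genes held no CACGTG, which was present in 3.35% of all promoter sites and 2.80% of all sites, and 0 of 15 allows a share of up to 20%. Over whole sites 1 of the 15 held it, the widest site at Pcbp1. CACGCG was in 3 of the 15, those at Srr, Snrnp27 and Rnf4, against 12.0% of promoter sites and 6.97% of all sites. The ETS letters were in 2 (5.33% of promoter sites and 2.92% of all sites), CCAAT in 2 (11.0% and 17.0%), the SP/KLF letters in 1 (5.36% and 3.03%) and the AP-1 letters in 2 (2.99% and 8.21%). Both AP-1 matches, upstream of Myc and downstream of Mxi1, were in sites outside CpG islands.

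The wider network was read from a list of 56 partners, regulators and targets, all of them found and all with a CpG island. A promoter site was present at 21 (37.5%, Wilson 95% interval 26.0% to 50.6%), next to the 19.0% of all island genes. The list was chosen with earlier results of these data known, so the interval does not measure a difference from island genes in general. The site nearest to a TSS of each of these 21 genes had a median width of 380 bp (200 to 1023 bp) and was centred a median of 194.5 bp from it, 11 downstream and 10 upstream, with 612 bp as the largest distance. Among MYC cofactors 4 of 8 had a site, namely Trrap and Ep400, subunits of the TIP60 acetyltransferase complex, Wdr5, which binds MYC and is also a partner of ASH2L in the KMT2 core, and Zbtb17, which encodes the MYC partner MIZ1. The site of Ep400 was 600 bp wide and centred 166.5 bp upstream of the TSS, and that of Wdr5 was 243 bp wide and centred 196 bp downstream. Ruvbl1, Ruvbl2, Kat5 and Kat2a of the same group had none. Among the SIN3 corepressors of MXD and MNT 2 of 6 had a site, Sin3b and Ncor1, while Sin3a, Hdac1, Hdac2 and Sap30 had none within 1 kb. In the Polycomb complex that contains MGA 3 of 9 had a site, the E3 ligase gene Rnf2 and the adaptor genes Rybp and Yaf2.

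Genes of MYC turnover had a site in 4 of 7 cases, with the ubiquitin ligase receptor Fbxw7, the deubiquitinase Usp28, the kinase Gsk3b that primes MYC for FBXW7, and Aurka, whose site was nearest to a TSS of Cstf1. The 3 genes of the parallel MLX arm, Mlx, Mlxip and Mlxipl, had none, and the site nearest to Mlxip had a TSS of Setd1b as its closest and was 252 kb away. Of 7 other helix-loop-helix zipper factors that bind E-boxes, Usf1 alone had a site (329 bp). Of 16 textbook MYC target genes 7 had a site, namely Ncl with 3 sites, Npm1 with a nearest site of 1023 bp, Nop56 with 2 sites, Cdk4, Nme1, Hspd1 and Bop1, the last of which shared its site with Hsf1. The other 9, Odc1, Nop58, Fbl, Cad, Ccnd2, Ldha, Eif4e, Srm and Shmt2, had none within 1 kb. Leaving the targets out, 14 of 40 partners and regulators (35.0%) had a promoter site. The groups were small and were not tested against each other.

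**Figure D5:**
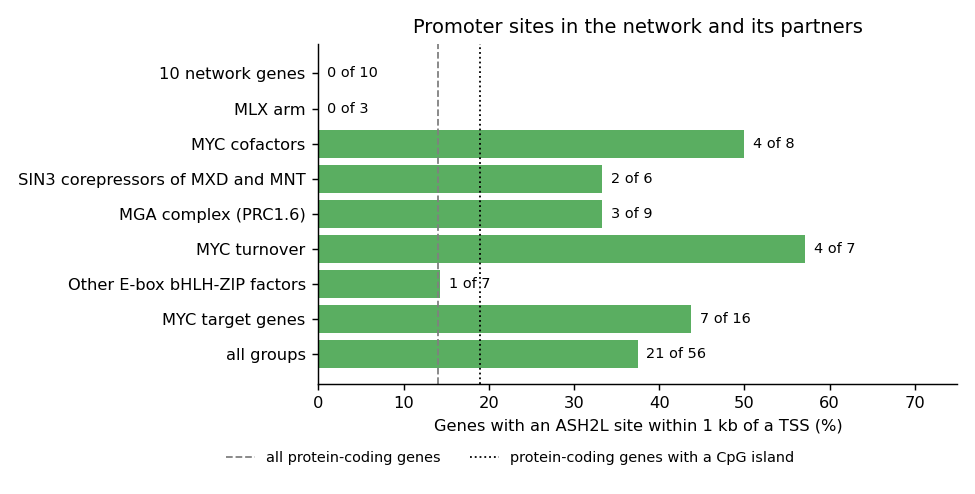
Bars show the share of genes (%) with an ASH2L site within 1 kb of a TSS in the 10 network genes and in each group of the wider list, with the count beside each bar, and vertical lines mark all protein-coding genes (14.0%, dashed) and those with a CpG island (19.0%, dotted). The network genes and the MLX arm are at 0, and the groups of MYC cofactors and MYC turnover are at 50.0% and 57.1%.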

How the data were processed

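The authors sequenced ASH2L precipitates and inputs of iMEF cells without dTAG and with dTAG for 1 h (2 samples per group). Per the labels and methods, reads were aligned to mm10 with BWA, filtered with SAMtools, merged over replicates and called with MACS2. The deposited list gives the positions of 6444 sites in bp, with no count, signal or p-value. With this list the planned leaving out of replicates and any comparison of dTAG could not be run, and no test was made. Starts were read as counted from 0, and positions are printed counted from 1. TSSs and genes were taken from GENCODE release 21 (the study used release 25) and sequence from GRCm38.p6, the same build as mm10. Sites on the 21 assembled chromosomes (6428) were represented by their centres. Promoter sites were centred within 1 kb of any TSS. CpG islands were computed (at least 200 bp, GC over 50%, observed to expected CpG over 0.6). Shares carry Wilson 95% intervals, and a count of 0 allows up to 3 counts of the total. The members and lists were chosen with earlier results of these data known. All members were named. For each, every site in its promoter or body was to be given, and otherwise the nearest site and the gene of the nearest TSS. Calculations used SciPy 1.17.1, pandas 2.3.3 and NumPy 2.4.6 under Python 3.11.15, figures were drawn with matplotlib 3.10.9, and the functions were tested on simulated data. Sequences are printed for selected promoters and sites only, and 1 of those selected is not reported here.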

Additional observations from a re-analysis of the deposited data

How the results depend on the processing

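No site was found at the promoters, within 3 kb or in the bodies of the network genes under any of the 14 alternatives tried. These changed the representation of the site, the set of TSSs, the window and the widths included. Most of them narrowed a count already at 0 or lay inside the 3 kb already at 0, so their result was fixed in advance. Only counting any overlap with the window or gene, and the RefSeq starts, could have given another count. The RefSeq starts were an addition made once the data had been seen, and the site nearest to them was 13.7 kb away. The number of sites within 200 kb, 15, became 8 within 100 kb, 49 within 500 kb and 6 for sites farther than 3 kb from any TSS. It was 12 when sites within 1 kb of each other were merged, and 12 without sites of 200 bp. The E-box count of 0 sites became 1 over the whole site and 1 in 400-bp windows, that of CCAAT rose from 2 to 4 and 5, and that of NRF1 was 1 over the whole site. Without sites of 200 bp, an alternative also chosen after seeing the data, the nearest site of Myc moved from -113.5 kb to 141.2 kb, that of Mycn from 12.5 kb to -307.3 kb and that of Mycl from 423.5 kb to 448.0 kb, and the other 7 members kept theirs. The nearest site of Mxi1, at 20.2 kb from any TSS, was at 59.9 kb with only TSSs of protein-coding transcripts and at 79.7 kb by gene start alone. These settings for nearest sites were not planned either. The wider list gave 19 to 22 genes with a promoter site (21 in the report). The members with a site within 200 kb numbered 5 to 10 over the settings used for the sites within 200 kb, which were not planned for this count. Width and offset alternatives for member promoter sites gave no value, because there was no such site. No paired analysis was possible because the list has no column per sample, and leaving out each replicate was not run for the same reason. A site missing from the list may have been too weak to be called in these libraries, whose depth the list does not show, and 10 genes cannot resolve a share below 30% from 0.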
